A study of Gallus gallus with 12 samples.

Results

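The miR-30 family was followed in the breast muscle of 2 chicken breeds. Its members were taken by name, as every miRNA of the deposited table whose identifier begins with gga-miR-30 followed by a letter. These were gga-miR-30a-5p, gga-miR-30c-5p and gga-miR-30d, 3 of the 38 miRNAs listed. Small RNA was sequenced individually from 6 pedigree male (PeM) broilers, a line selected for growth and feed efficiency, and from 6 Barred Plymouth Rock (BPR) chickens, an unselected breed that grows slowly. All 12 birds were labelled as 8 weeks old and none of the labels names a treatment. The study itself gives only an upper limit, immature birds of at most 8 weeks, so an equal age rests on the labels. Values were in RPM, reads scaled so that the miRNA reads of every bird add up to the same total. The comparison asked which miRNAs differ in abundance between a fast-growing and a slow-growing muscle.

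MicroRNAs pair with messenger RNAs through a short stretch near their 5′ end, the seed, and lower the translation or stability of those messengers. The miR-30 miRNAs share one seed and differ mainly in the rest of the molecule, so they are predicted to bind largely the same targets. In mammals they are abundant in heart and skeletal muscle. In human cells miR-30a lowers BECN1, a protein that starts autophagy, and in the rat heart miR-30c lowers connective tissue growth factor, a driver of fibrosis.

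In the RefSeq annotation of assembly GRCg7b, 6 genes encode miR-30 miRNAs and each of them lies beside another. MIR30A (the gene of miR-30a-5p) neighbours MIR30C2, MIR30D (the gene of miR-30d) neighbours MIR30B, and MIR30C1 neighbours MIR30E. Mature miR-30c-5p has 2 genes, MIR30C1 and MIR30C2, and its RPM cannot be divided between them. Arms of MIR30B and MIR30E are not among the 38 listed miRNAs and so were not analysed here. The mature members are similar in sequence, and how reads that fit more than 1 of them were assigned is not given in the sources used here. The division of reads between members is therefore uncertain.

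The number of reads behind each value was recovered from the step between RPM values, which is the value of 1 read (80.3 to 331 RPM). Totals were 3021 to 9120 reads in PeM birds and 4784 to 12454 reads in BPR birds, and PeM bird 16 held the 9120. These totals are far below the clean reads the study gives for its libraries, and the reason is not given in the sources used here. All read numbers, counting intervals and relations to depth below rest on the recovered totals and would change if the deposited values had been scaled in another way. All 36 values of the miR-30 members were whole reads. The listed miRNAs took 93.2% to 94.7% of the reads in PeM birds and 87.6% to 93.7% in BPR birds, and the 2 lowest were BPR birds 2 and 3. The skeletal muscle markers miR-1a-3p, miR-133a-5p, miR-133c-3p and miR-206 together held 30.1% to 42.3% of the reads in PeM birds and 34.9% to 42.5% in BPR birds. Most of this sum was miR-1a-3p. MiR-206 alone ran from 16551 to 31908 RPM in PeM birds, against 27121 to 36133 RPM in BPR birds (log2 fold change -0.47, limma adjusted p = 0.104, unadjusted p under 0.05), and miR-133c-3p and miR-133a-5p did not pass either threshold (log2 fold changes 0.19 and -0.08). The red cell marker miR-451 ran from 2193 to 3299 RPM in PeM birds, against 1292 to 14861 RPM in BPR birds (limma adjusted p = 0.774). Its log2 fold change was -0.34, while that of the other red cell marker, miR-16-5p, was 0.32 (limma adjusted p = 0.395). MiR-16-5p ran from 3509 to 7110 RPM in PeM birds, against 3344 to 4982 RPM in BPR birds. The endothelial marker miR-126-3p was higher in PeM in these RPM values (log2 fold change 0.57, limma adjusted p = 0.0283). In the study, quantitative PCR of this endothelial marker did not match the sequencing, which the authors say may reflect different data normalization. For miR-206, which the study reports as lower in PeM, its quantitative PCR had the same direction as the sequencing. The part of all these markers in the values below was not tested.

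MiR-30c-5p was the leading member and ranked 2 of the 38 miRNAs in every bird. Its lowest, median and highest levels were 165529, 170840 and 198610 RPM in PeM birds, against 160029, 186650 and 210526 RPM in BPR birds. These levels rest on 582 to 1797 reads per PeM bird and 956 to 1993 reads per BPR bird. All PeM birds lay within the range of the BPR birds, of which 2 were above and 1 below every PeM bird. The highest value, BPR bird 4, was 1.32 times the lowest, BPR bird 3. Within PeM, birds 5 and 16 stood at 198610 and 197039 RPM, while the other 4 PeM birds lay between 165529 and 172087 RPM. PeM birds 16 and 4 were picked for comparison after their values were seen. The 95% exact binomial intervals of PeM bird 16 (188919 to 205354 RPM) and PeM bird 4 (153384 to 178233 RPM) did not meet. Such intervals cover counting error only, since copies made by PCR were not told apart. The SD between birds was 2.53 times the counting error in PeM and 3.81 times in BPR.

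MiR-30d was the next member in abundance. Its lowest, median and highest levels were 12171, 13267 and 21488 RPM in PeM birds, against 12687, 16677 and 19938 RPM in BPR birds. It rested on 46 to 111 reads per PeM bird and 73 to 161 reads per BPR bird. PeM birds 1 and 5 were high, at 21488 and 18537 RPM, and the other 4 PeM birds lay between 12171 and 13452 RPM. In BPR, birds 4, 6 and 7 were high, between 18095 and 19938 RPM, and birds 1, 2 and 3 lay between 12687 and 15259 RPM. The breeds overlapped, with 1 PeM bird above and 2 PeM birds below all BPR birds. The SD between birds was 2.09 times the counting error in PeM and 2.10 times in BPR.

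MiR-30a-5p was the least abundant of the 3. Its lowest, median and highest levels were 8646, 11515 and 12248 RPM in PeM birds, against 6905, 9620 and 14576 RPM in BPR birds. The BPR birds spread more widely and enclosed all PeM birds. BPR bird 7 was the highest, at 14576 RPM (79 reads), and BPR birds 3 and 4 were the lowest, at 6905 RPM (86 reads) and 7059 RPM (57 reads). The 95% exact binomial interval of BPR bird 7 (11556 to 18133 RPM) lay above those of BPR bird 3 (5527 to 8521 RPM) and BPR bird 4 (5351 to 9136 RPM). These birds are the ends of the BPR range and were picked after their values were seen. In BPR the SD between birds was 2.42 times the counting error. In PeM it was 0.989 times, so no difference among those 6 birds was detectable at 37 to 111 reads.

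**Figure D1:**
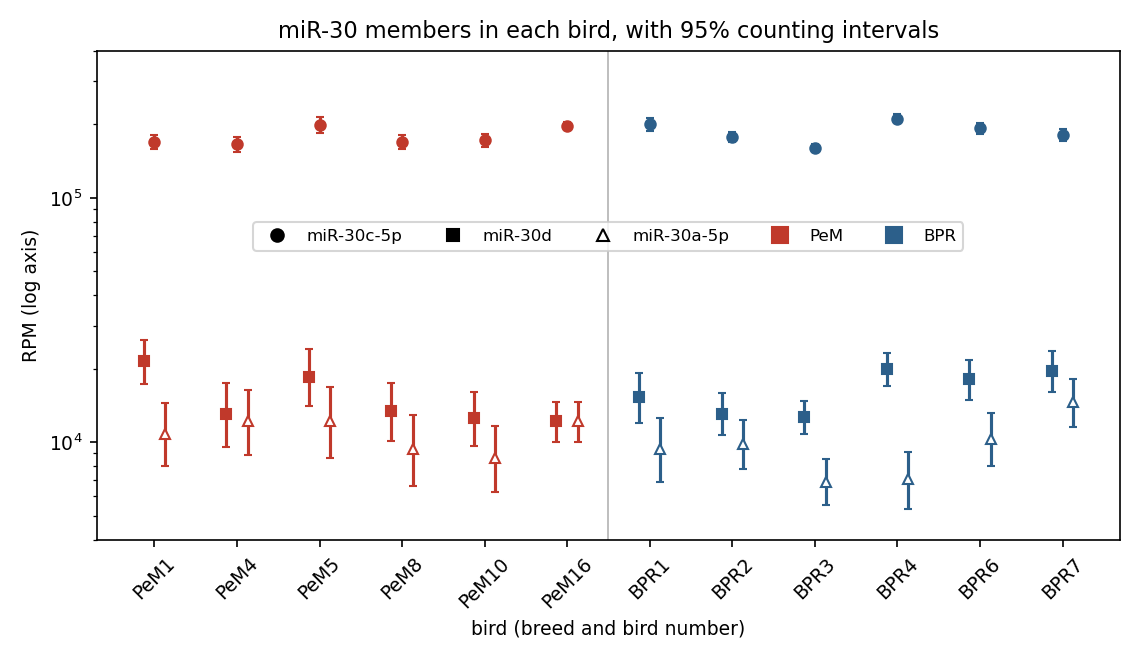
RPM of the 3 miR-30 members (log axis) in each of the 6 PeM and 6 BPR birds, with 95% exact binomial intervals from the recovered reads as bars. MiR-30c-5p lies between 160029 and 210526 RPM, and miR-30d and miR-30a-5p lie at or below 21488 RPM.

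The order of the members was the same in all birds but one. MiR-30c-5p was above miR-30d by 3.55 on the log2 scale (SD 0.28 over 12 birds), a ratio of 11.8 in the geometric mean, and above miR-30a-5p by 4.18 (SD 0.34), a ratio of 18.1. Both held in 12 of 12 birds (exact two-sided sign-flip permutation test over birds, p = 0.000488, the smallest possible, and 0.0011 after adjustment over 9 pairs). MiR-30d was above miR-30a-5p by 0.62 (SD 0.40), or 1.54 times, in 11 of 12 birds (exact p = 0.000977, adjusted 0.00176). The exception was PeM bird 16, in which both had 111 reads and so the same level. The 3 pairs of members therefore differed beyond their spread over birds. The order of the 3 was already given by the mean levels that the study lists for these birds. These p-values thus add little to the ratios.

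Among all miRNAs of the table, ordered by mean RPM over the 12 birds, miR-30c-5p ranked 2, miR-30d 10 and miR-30a-5p 16. MiR-30c-5p stood apart from both neighbours. It was below miR-1a-3p, a muscle-specific miRNA that promotes differentiation, by 0.88 on the log2 scale and above miR-126-3p by 1.63, each in 12 of 12 birds (exact p = 0.000488, adjusted 0.0011). MiR-30d could not be separated from its neighbours let-7c-5p (mean log2 ratio of let-7c-5p to miR-30d 0.02, SD 0.45, adjusted exact p = 0.875) and miR-146c-5p (mean log2 ratio of miR-30d to miR-146c-5p 0.15, SD 0.54, adjusted exact p = 0.444). MiR-30a-5p could not be separated from miR-125b-5p, whose mean RPM was the higher while the mean log2 ratio of miR-125b-5p to miR-30a-5p was -0.03 (SD 0.37, adjusted exact p = 0.867). It was above miR-26a-5p by 0.35 (SD 0.46) in 9 of 12 birds (adjusted exact p = 0.0439). That last difference lost its unadjusted p under 0.05 in 6 of the 12 tests that left out 1 bird each, namely PeM birds 1, 4, 5, 8 and 16 and BPR bird 1, with mean log2 ratios of 0.28 to 0.42 over the 12. Each neighbour was chosen as next in mean RPM over these same birds. Where ranks lie close, a small difference was thus likely beforehand, and its direction was largely set. RPM counts reads per molecule type, and how efficiently each miRNA enters a library was not tested.

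The share of the miRNA reads that the 3 members took together was 20.5% ± 1.65 in PeM and 21.3% ± 2.04 in BPR (SD, n = 6 birds each). The lowest, median and highest shares were 19.1%, 19.8% and 22.9% in PeM birds, against 18.0%, 21.8% and 23.8% in BPR birds. No test was made of this sum. PeM birds 5 and 16 were above the other PeM birds, at 22.9% and 22.1%, and BPR bird 3 was below all others.

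Shares of the family are given here as percent of the sum of the 3 listed members, without arms of MIR30B and MIR30E. Most of the sum was miR-30c-5p. It made up 87.2% ± 1.92 of the family in PeM and 87.8% ± 1.93 in BPR. The remainder was miR-30d, at 7.43% ± 1.78 in PeM and 7.68% ± 1.03 in BPR, and miR-30a-5p, at 5.33% ± 0.653 in PeM and 4.56% ± 1.29 in BPR. Over the 12 birds, the lowest and highest shares of miR-30c-5p in the sum were 84.0% and 89.1%. The lowest were PeM bird 1, where miR-30d reached 10.6% of the family, and BPR bird 7, where miR-30d was at 9.11% and miR-30a-5p at 6.79%. For comparison, the let-7 family, which slows proliferation and has 4 members in the table, held 6.82% ± 0.792 of all reads in PeM and 6.49% ± 0.560 in BPR. Its leading member, let-7b in every bird, made up 46.8% ± 3.85 of the let-7 sum in PeM and 41.0% ± 3.54 in BPR. The lead of 1 member was thus larger in miR-30 than in let-7 in each bird, a description to which no test was applied.

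**Figure D2:**
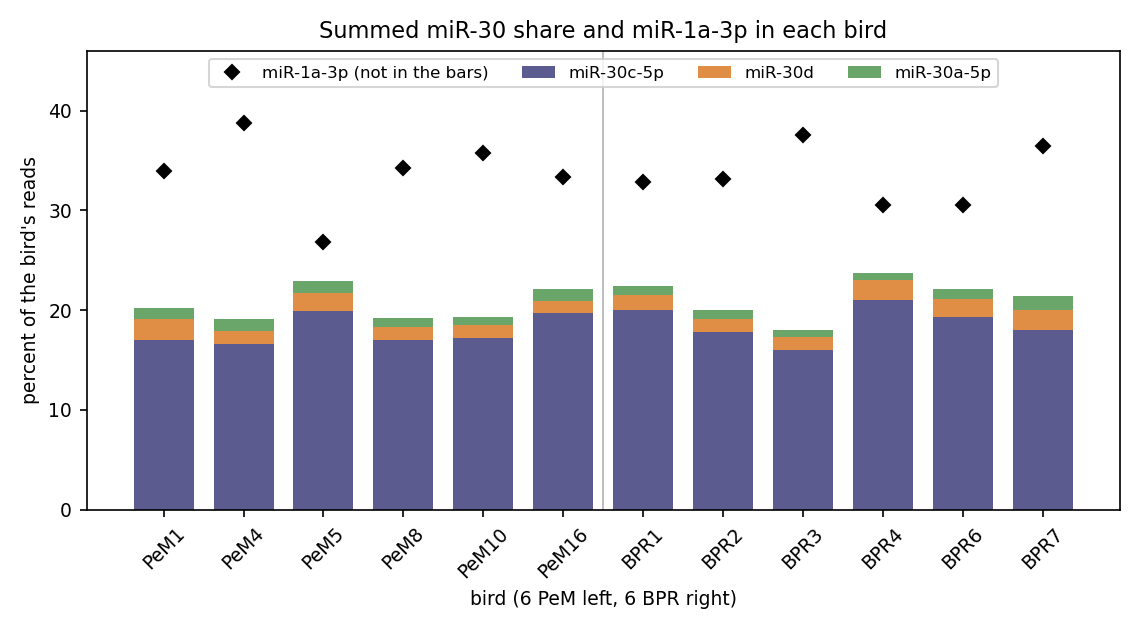
Stacked bars give miR-30c-5p, miR-30d and miR-30a-5p as percent of the reads of each bird, 6 PeM birds left and 6 BPR birds right, and diamonds give miR-1a-3p. The bars reach 18.0% to 23.8% and are mostly miR-30c-5p, and the diamonds run from 26.8% to 38.8%.

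None of the 3 members differed detectably between PeM and BPR. The test was limma on log2(RPM), in which the variance of each miRNA is drawn towards that of all miRNAs. A miRNA was called where the levels differed by over 1.2-fold in either direction with p under 0.05 before adjustment. By this rule 8 of all 38 miRNAs (21.1%) were called, 7 of them higher and 1 lower in PeM, against 0 of the 3 members. An adjusted p under 0.05 was reached by 5 of the 38 (13.2%) and by 0 members. The members' unadjusted p-values under 0.05 also numbered 0, both in limma and in the exact permutation test. With 3 members, a count of 0 is not far from what either share would give.

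MiR-30c-5p averaged 178734 ± 14945 RPM in PeM and 186869 ± 17959 RPM in BPR (SD, n = 6 birds each). On the log2 scale PeM differed from BPR by -0.06 (SE 0.13, adjusted p = 0.823 in limma, exact two-sided permutation p = 0.405). The 95% interval ran from -0.33 to 0.21, which corresponds to PeM levels between 0.795 and 1.15 times those of BPR. This SE was the smallest of all 38 miRNAs. A rise of 1.2-fold in PeM lies outside this limma interval, and a decline of that size lies within it. The width of the interval rests on a variance drawn towards that of all miRNAs. No interval from the spread of miR-30c-5p alone was made, so whether such a decline would lie within it was not tested.

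MiR-30d averaged 15215 ± 3857 RPM in PeM and 16441 ± 3202 RPM in BPR. Its log2 fold change was -0.12 (SE 0.19, limma adjusted p = 0.798, exact p = 0.489). The 95% interval of -0.53 to 0.28 spans ratios from 0.694 to 1.21. Changes within that range were not excluded with these birds.

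MiR-30a-5p averaged 10924 ± 1585 RPM in PeM and 9683 ± 2794 RPM in BPR. Its log2 fold change was 0.21 (SE 0.19, limma adjusted p = 0.588, exact p = 0.281), with a 95% interval of -0.20 to 0.62 and ratios from 0.870 to 1.53. Of the 6 PeM birds, 4 were above the BPR mean. Single BPR birds moved this value by over 1.5 times. It was 0.33 without BPR bird 7 and 0.12 without BPR bird 3, and neither fit called it. With BPR birds 2 and 3 left out together, whose listed shares were lowest, the log2 fold changes were -0.13 for miR-30c-5p, -0.29 for miR-30d and 0.11 for miR-30a-5p, and none was called. Over the 3 members the median log2 fold change in all birds was -0.06, beside 0.07 over all 38 miRNAs.

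**Figure D3:**
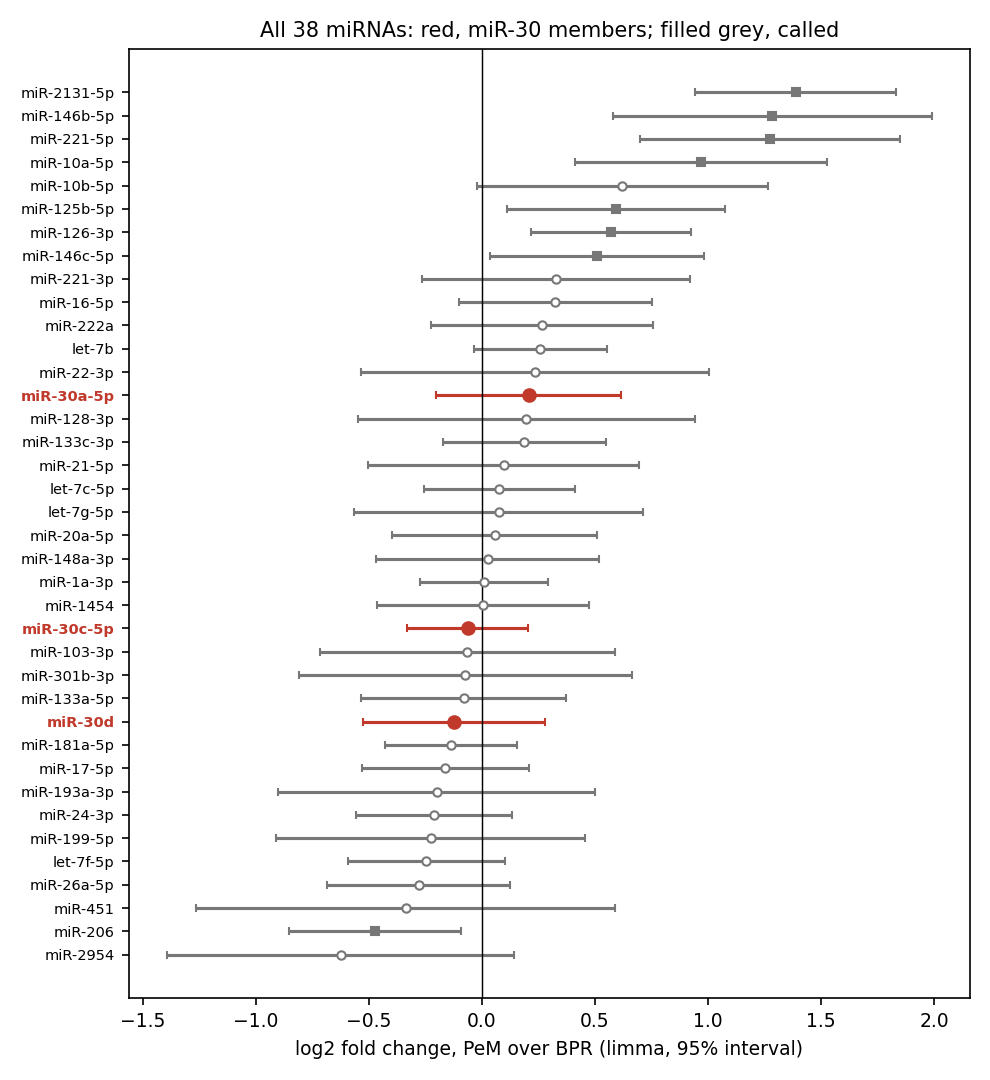
Log2 fold change of PeM over BPR from limma for all 38 miRNAs, with 95% intervals as bars. The 3 miR-30 members (red) lie at -0.12, -0.06 and 0.21, all with intervals across 0, and the 8 called miRNAs are filled in grey.

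Ratios between members within a bird do not depend on how its reads were scaled, and so test directly whether the members' breed differences are unlike. MiR-30c-5p was 13.5, 16.2 and 19.9 times miR-30a-5p in PeM birds (lowest, median and highest), against 12.4, 20.0 and 29.8 times in BPR birds. BPR birds 1, 3 and 4 exceeded every PeM bird, and BPR bird 7 was below every PeM bird. The difference in mean log2 ratio was -0.27 as PeM minus BPR (4.04 ± 0.19 in PeM and 4.31 ± 0.42 in BPR), with an interval of -0.67 to 0.14 from inverting the exact permutation test (exact p = 0.184, 0.276 after adjustment over the 3 ratios). Single birds moved this value in both directions. Without BPR bird 7 the difference was -0.41 (exact p = 0.0173, not adjusted), and without BPR bird 4 it was -0.15 (exact p = 0.366, not adjusted). No other fit without 1 bird had an exact p under 0.05.

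MiR-30d was 1.00, 1.44 and 1.98 times miR-30a-5p in PeM birds (lowest, median and highest), against 1.33, 1.69 and 2.82 times in BPR birds. The lowest ratios, 1.00 and 1.07, were those of PeM birds 16 and 4, both below all BPR birds, and the highest was that of BPR bird 4. The difference in mean log2 ratio was -0.33 as PeM minus BPR (0.46 ± 0.36 in PeM and 0.79 ± 0.40 in BPR), with an interval of -0.84 to 0.14 (exact p = 0.167, adjusted 0.276). Without BPR bird 4 the difference was -0.19.

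MiR-30c-5p was 7.89, 12.6 and 16.2 times miR-30d in PeM birds, against 9.23, 11.6 and 13.5 times in BPR birds. The PeM birds enclosed all BPR birds, with PeM bird 1 lowest and PeM birds 10 and 16 highest. The difference in mean log2 ratio was 0.06 (3.59 ± 0.35 in PeM and 3.52 ± 0.22 in BPR), with an interval of -0.33 to 0.41 (exact p = 0.723, adjusted 0.723). None of the 3 ratios was shown to differ between the breeds.

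**Figure D4:**
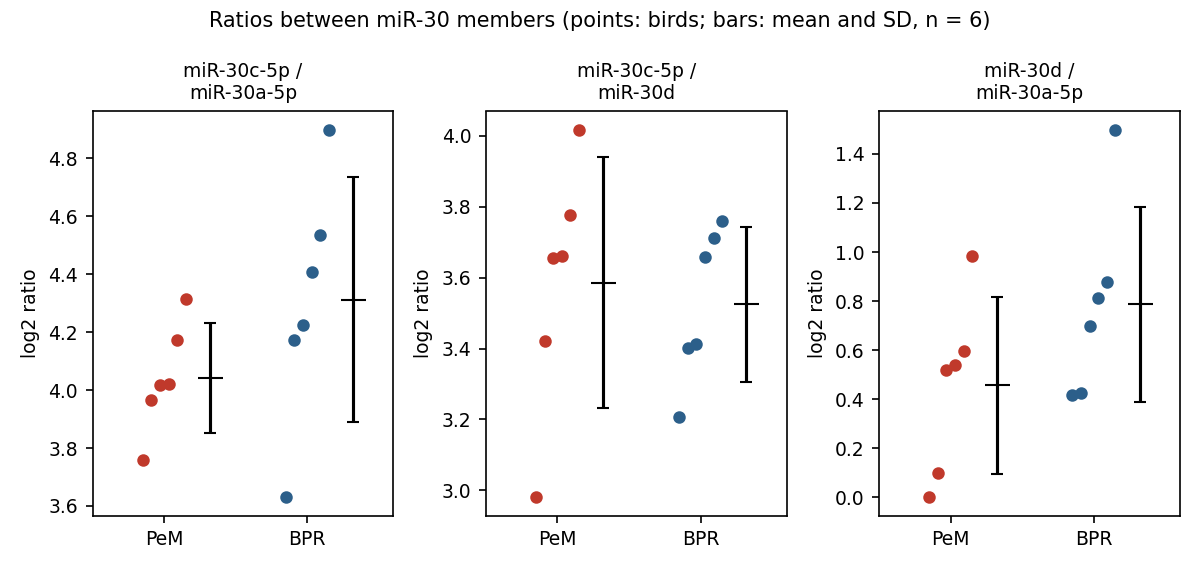
Log2 ratios of miR-30c-5p to miR-30a-5p, miR-30c-5p to miR-30d and miR-30d to miR-30a-5p, with 1 point per bird, PeM left of BPR, and the mean and SD of 6 birds as bars. The points of the breeds overlap in all 3 panels, and the 3 panels have different axis ranges that do not start at 0.

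The members were then compared for covariation of log2(RPM) over the 12 birds. In all, 7 relations were tested, and p-values come from 100000 permutations and were adjusted over the 7. The closest pair was miR-30c-5p with miR-30d, at r = 0.40 (permutation p = 0.193, adjusted 0.450) and rho = 0.36 (permutation p = 0.248, adjusted 0.578). Within breeds r was 0.06 in PeM and 0.68 in BPR (exact permutation p = 0.935 and 0.135), and without the 2 birds farthest from the median of miR-30c-5p it was 0.15. Without PeM bird 1 alone r was 0.62 (permutation p = 0.0477, not adjusted). MiR-30a-5p correlated with miR-30d at r = 0.20 (permutation p = 0.537, adjusted 0.752) and rho = 0.23 (permutation p = 0.472, adjusted 0.661). Within breeds r was 0.23 in PeM and 0.36 in BPR (exact permutation p = 0.674 and 0.493), and without the 2 farthest birds it was -0.17. Leaving out 1 bird at a time gave r of 0.02 to 0.47.

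The genes MIR30A and MIR30C2 are neighbours. For miR-30a-5p with miR-30c-5p, r was 0.05 (permutation p = 0.876, adjusted 0.907) and rho was 0.13 (permutation p = 0.685, adjusted 0.750). Within breeds r was 0.50 in PeM and -0.01 in BPR (exact permutation p = 0.307 and 0.990), and without the 2 farthest birds it was -0.25. With every bird set relative to its own median miRNA, r was 0.48 for this pair, 0.38 for miR-30c-5p with miR-30d and 0.15 for miR-30a-5p with miR-30d (permutation p = 0.120, 0.220 and 0.651, not adjusted). The same median is taken from both members of a pair, which can push r upward by itself. No difference between these correlations was tested. No pair of members was shown to covary over these birds.

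Correlations of the members with log2 total reads, which ask whether depth moves with the levels, were r = -0.51 for miR-30a-5p, 0.04 for miR-30c-5p and -0.26 for miR-30d (permutation p = 0.0909, 0.907 and 0.404, adjusted 0.318, 0.907 and 0.707). The rho values were -0.45, 0.10 and -0.29 in the same order (permutation p = 0.146, 0.750 and 0.366, adjusted 0.510, 0.750 and 0.641). Without the 2 birds farthest from the median of each member r was -0.36, 0.28 and -0.38. Within PeM r was 0.02, 0.33 and -0.46 (exact permutation p = 0.990, 0.557 and 0.378), and within BPR it was -0.72, -0.58 and -0.49 (exact permutation p = 0.101, 0.235 and 0.331). No member moved with depth past the threshold in all 12 birds on this scale. Without PeM bird 16, the deepest of its breed, r of miR-30a-5p with depth was -0.67 (permutation p = 0.0237, not adjusted). With each bird relative to its median miRNA, r of miR-30c-5p with depth was 0.65 (permutation p = 0.0197, not adjusted). That value also holds any relation of the median miRNA itself to depth, which was not tested.

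The relation past the threshold was between miR-30c-5p and miR-1a-3p, the 2 most abundant miRNAs of the table. Birds with a larger share of miR-30c-5p had a smaller share of miR-1a-3p, with r = -0.76 (permutation p = 0.00287, adjusted 0.0201) and rho = -0.83 (permutation p = 0.00142, adjusted 0.00994). Within breeds r was -0.78 in PeM and -0.84 in BPR (exact permutation p = 0.00694 and 0.0431), and rho was -0.83 and -0.89 (exact permutation p = 0.0583 and 0.0333). It also held without BPR birds 3 and 4, the 2 farthest, at r = -0.71 (permutation p = 0.0123). Examples are BPR bird 4, with 21.1% miR-30c-5p and 30.5% miR-1a-3p, and PeM bird 4, with 16.6% and 38.8%. PeM bird 5 had the lowest miR-1a-3p, 26.8%, and 19.9% miR-30c-5p. Both are large parts of 1 fixed total per bird, which can push r downward by itself. The permutation p-values above do not allow for this. The part of that total in the relation was not tested on its own. With every bird set relative to its own median miRNA, r was 0.71 (permutation p = 0.00973). The same median is then taken from both miRNAs, which can push r upward by itself, and the permutation does not allow for this. The negative direction was therefore seen for shares of the reads and not relative to the median miRNA. Whether the shared median makes this turn was not tested.

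**Figure D5:**
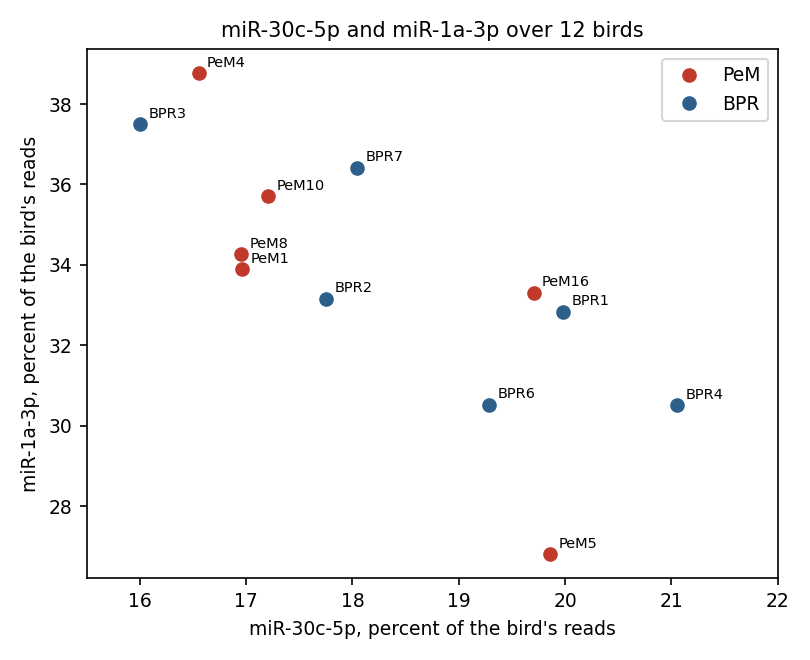
MiR-30c-5p (x axis) and miR-1a-3p (y axis), both as percent of the reads of a bird, with 1 labelled point for each of the 6 PeM and 6 BPR birds. The points fall from PeM bird 4 and BPR bird 3 at upper left to BPR birds 4 and 6 and PeM bird 5 at lower right, and neither axis starts at 0.

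Outside the family, the miRNAs with the pattern most like each member were found by Pearson's r of log2(RPM) over the 12 birds after centring on the breed mean, among 35 other miRNAs. These values are descriptions, without a test, and all miRNAs of a bird share its library and its total. MiR-30c-5p was closest to miR-146c-5p (r = 0.81) and miR-126-3p (r = 0.59), both called as higher in PeM. MiR-30d was closest to miR-199-5p (r = 0.78) and miR-103-3p (r = 0.71). MiR-30a-5p was closest to miR-125b-5p (r = 0.63) and miR-22-3p (r = 0.54). Without the centring, r was 0.50 for miR-30c-5p with miR-146c-5p and 0.16 with miR-126-3p. In the same order as above, it was 0.78 and 0.71 for the neighbours of miR-30d and 0.67 and 0.56 for those of miR-30a-5p. The 3 members had no miRNA in common among these nearest neighbours. With only 2 of 35 listed for each member, this does not show that their patterns differ.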

How the data were processed

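The authors trimmed adapters with bbduk, checked quality with FastQC, aligned the reads to chicken mature miRNAs of miRBase with ArrayStar and deposited RPM per bird, leaving out miRNAs under 5 average reads in both breeds. The labels name build galGal5, and the miRBase release and mismatches allowed are not given in the sources used here. The deposited p-value and log2 columns, which hold the authors' means and comparison, were not used. The members and lists were chosen with earlier results of these data known.

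Reads were recovered by trying totals of 1000 to 20000 per bird and keeping the one that made most values whole within 0.005 reads (443 of 456, 97.1%). A floor of 3 reads is 240.9 to 993 RPM. Breeds were compared by fitting log2(RPM), no pseudocount being needed, in limma 3.58.1 (R 4.3.3), with Benjamini-Hochberg adjustment over all 38 miRNAs, and by exact permutation over 924 assignments of birds (smallest p 0.00216). The limma fit was run on simulated data in which every miRNA had the same spread between birds before counting error. In the real data the spread differs between miRNAs, so the simulation was not a test of the p-values given here. The labels do not say how birds were housed or related, so p-values measure only the spread between these birds. In the study a company provided the PeM birds and a university research facility maintained the BPR birds. Breed and source therefore cannot be told apart. Of the 66 pairs of libraries none was a duplicate (r 0.892 to 0.980 across miRNAs). Named besides the members are the miRNAs next to each in mean RPM, the 2 of most similar pattern, cell type markers and the let-7 family. Alternatives were pseudocounts of 1 and 100, centring on the median, RPM recomputed after dropping the 2 most abundant miRNAs, limma with a variance trend, a filter at 2000 RPM, the exact test, a fold change of 1.5, limma-voom on recovered reads, a replicate block and leaving out each bird. Gene names came from the RefSeq table of GRCg7b, whose coordinates are not printed because the build differs. No table of mature sequences was used here. Figures were drawn with matplotlib 3.10.9 in Python 3.11.15.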

Additional observations from a re-analysis of the deposited data

Results flagged for a closer look

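No bird passed Dixon's 95% critical value in the RPM of the 3 members, their ratios, the summed share or the shares of the family. These made 20 groups of 6 birds, chance flags about 1 group in 20, and the widest gap was 0.613 of its range.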

How the results depend on the processing

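None of the 3 members was called under any alternative, and no member's log2 fold change changed sign. Over 10 settings other than the replicate block and the fits without 1 bird, it was -0.13 to -0.05 for miR-30c-5p, -0.29 to -0.12 for miR-30d and 0.11 to 0.31 for miR-30a-5p. Among these settings, the variance trend, the filter, the exact test and the fold change of 1.5 leave the log2 fold change as it was by construction. A fold change of 1.5 can also only remove calls. Over the 12 fits without 1 bird it was -0.11 to -0.03, -0.23 to -0.06 and 0.12 to 0.33 in the same order. In the 4 birds of the replicate block, with or without the block, it was -0.29, -0.06 and 0.50. The fit of those 4 birds without the block and that without BPR birds 2 and 3 (-0.13, -0.29 and 0.11) were chosen after seeing the data.

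Of all 38 miRNAs, 8 were called by the main rule, against 5 at a fold change of 1.5, 5 without BPR birds 2 and 3 and 7 to 10 without 1 bird. After centring on the median 6 were higher and 0 lower, beside 7 and 1. An adjusted p under 0.05 was reached by 5, against 3 with the filter at 2000 RPM, 1 without BPR birds 2 and 3, 2 to 6 without 1 bird (2 without PeM bird 8, 3 without PeM bird 1 and 3 without BPR bird 3), and 0 in the exact permutation test, where 9 had an unadjusted p under 0.05 and the lowest adjusted p was 0.0658. The breeds share replicate numbers 1 and 4, which name different animals and did not deviate together (correlations 0.03 and -0.17 over 38 miRNAs). With those numbers as a replicate block, 4 birds gave 11 calls and 2 after adjustment. The same 4 birds without the block gave 10 and 2.

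As PeM minus BPR, the log2 ratio of miR-30c-5p to miR-30a-5p was -0.41 to -0.15 without 1 bird and -0.79 in the 4 birds of the block. That of miR-30c-5p to miR-30d was -0.025 to 0.18 without 1 bird, turning below 0 without PeM bird 16 or BPR bird 7, and -0.23 in the block. That of miR-30d to miR-30a-5p was -0.44 to -0.19 without 1 bird and -0.56 in the block. Without 1 bird, the log2 ratio over all birds of let-7c-5p to miR-30d was -0.039 to 0.077 and that of miR-125b-5p to miR-30a-5p was -0.106 to 0.020. Correlations without 1 bird were -0.25 to 0.41 for miR-30a-5p with miR-30c-5p (-0.27 without BPR birds 2 and 3), 0.26 to 0.62 for miR-30c-5p with miR-30d, -0.67 to -0.28 for miR-30a-5p with depth and -0.12 to 0.43 for miR-30c-5p with depth (-0.14 after centring on the breed mean). After centring on the median, correlations with depth were 0.042 for miR-30a-5p, 0.65 for miR-30c-5p and 0.46 for miR-30d, and that of miR-30c-5p with miR-1a-3p was 0.71. The median taken away enters each of these centred values. For each of these values the cause was not tested. A loose rule rated 402 of 446 alternative values unchanged, even 11 calls beside 8, and some could not change. At 37 to 161 reads per bird, counting error is a larger part of the level in miR-30a-5p and miR-30d than in miR-30c-5p. The SD between birds was still 2.09 (PeM) and 2.10 (BPR) times counting error for miR-30d. For miR-30a-5p it was 2.42 times in BPR and 0.989 times in PeM.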

Other observations

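At the other end from the closest patterns, with the same centring on the breed mean and over the same 12 birds, miR-30a-5p ran most strongly against miR-21-5p (r = -0.76), and miR-30d against let-7b (r = -0.52). These pairs were chosen after their values were seen, and no test was made of them.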
